A study of Mus musculus with 2 samples.

Results

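The region that was set to hold the long noncoding RNA genes Malat1 and Neat1 carried 3 called peaks of the transcription factor subunit NF-E2 p45 in mouse megakaryocytes, out of 1651 in the whole list. The region is 75 kb of chromosome 19 on the mouse build mm9, and it begins 23.2 kb before the first of these peaks. Members were chosen by position, as every called peak overlapping the region. The region itself was proposed with the called positions and scores of the list in view, so the presence, scores and spacing of these peaks are a description and were not tested. Chromatin immunoprecipitation and sequencing (ChIP-seq) was done on megakaryocytes, the cells that shed platelets. They were grown from livers of wild-type C57BL6 fetuses at embryonic day 13.5 and taken on day 3 of culture with thrombopoietin at 50 ng/ml. The series has 1 library from an anti-p45 antibody and 1 input library with no antibody, which share cell type, strain and culture. The peak list belongs to the p45 library, and no values of the input library were used here. There is no replicate, so no value has a spread between libraries, and tag counts behind the peaks were not analysed. A peak list gives no expression level, so the cell type could not be checked against its markers and no RNA level of Malat1 or Neat1 is reported.

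NF-E2 p45 is the blood-restricted subunit of a dimer with a small Maf protein, and it is known as a regulator of platelet formation. Malat1 RNA is abundant, stays in the nucleus and collects in nuclear speckles, bodies rich in splicing factors. Neat1 RNA has a short and a long isoform, and the long one is the scaffold on which paraspeckles form. A small tRNA-like RNA, mascRNA, is cut from the end of the Malat1 transcript.

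Both genes were found by symbol in the RefSeq gene table, which is on build GRCm38.p6. On that build, in order of increasing coordinate, the genes around this pair included Ltbp3 before it and Frmd8 and Slc25a45 after it, and Malat1 came before Neat1, with the small RNA gene Mascrna inside Malat1. Ltbp3 encodes a latent TGF-beta binding protein, Frmd8 a partner of the iRhom proteins at the cell surface, and Slc25a45 a mitochondrial carrier. The peaks are on mm9, so they were not placed inside or outside exons or introns, and no distance to a transcript was computed. Their positions are therefore given against the ends of the region and against each other.

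The RefSeq promoter table held 1 of the 2 genes, Malat1. Its 300 bases on the minus strand of GRCm38.p6 are printed to show the letters searched for the NF-E2 motif, with the 50 bases from the annotated start onward in capitals. Whether a peak covers them was not analysed.
Malat1 promoter: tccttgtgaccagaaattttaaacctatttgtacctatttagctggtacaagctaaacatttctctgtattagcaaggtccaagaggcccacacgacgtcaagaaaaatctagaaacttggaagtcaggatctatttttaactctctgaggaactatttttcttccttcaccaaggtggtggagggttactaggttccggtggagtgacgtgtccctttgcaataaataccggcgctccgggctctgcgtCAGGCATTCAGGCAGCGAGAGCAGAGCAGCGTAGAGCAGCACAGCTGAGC

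The NF-E2 motif was searched on both strands as its core TGAGTCA, which AP-1 sites share, and as TGCTGA, the letters on the Maf side, which overlap the core by TGA in a full site. Neither run of letters was present in the Malat1 window. Among 32851 promoter windows of the same length, TGAGTCA was in 5.20% and TGCTGA in 19.5%. Of the nearby genes Ltbp3, Frmd8 and Slc25a45, which have a window in the table, Ltbp3 held TGAGTCA and none held TGCTGA. These matches describe windows of 300 bases only and say nothing of binding in the peaks, whose own sequence was not read.

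The first and highest of the 3 peaks ran from 5808188 to 5808753, a length of 566 bp. It began 23.2 kb after the start of the region and lay 51.2 kb before its end. Its score, the authors' own value for the peak on a scale that is not stated, was 188.4. The median score was 76.44 over the list and 96.18 on chromosome 19. It ranked 111 of 1651 in the list, where 6.72% of peaks scored as high or higher, and 7 of 51 on chromosome 19.

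The second peak ran from 5847468 to 5848586 and scored 142.87. At 1119 bp it was the longest of the group. It began 62.5 kb after the start of the region and ended 11.4 kb before its end. In score it ranked 217 in the list, with 13.1% as high or higher, and 11 on chromosome 19. In length it ranked 66 in the list and 4 on chromosome 19. Of the 67 peaks of the list that were at least this long, 18 also scored at least as high, itself included, and on chromosome 19 these counts were 4 and 2.

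The third peak, from 5850030 to 5850603, measured 574 bp and scored 138.5. It ended 9.40 kb before the end of the region. It ranked 233 in the list, with 14.1% as high or higher, and 13 on chromosome 19. The second and the third peak thus stood close in score and rank, and the first above both. With 1 library there is no error to set these differences against.

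**Figure D1:**
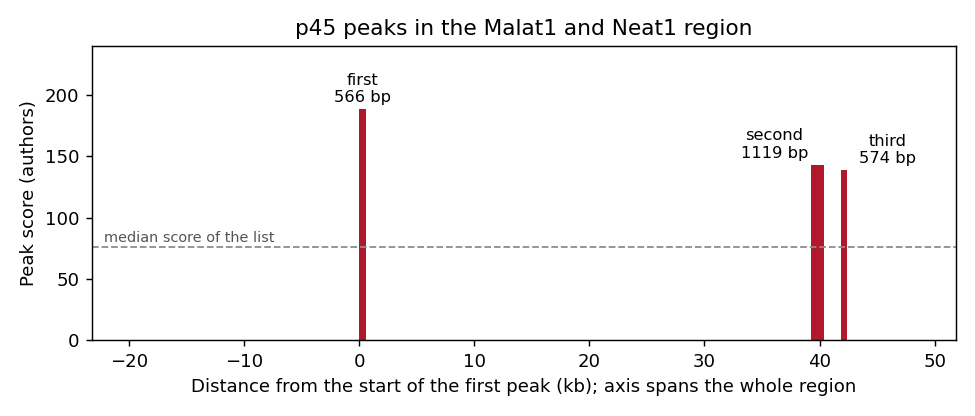
Peaks of p45 in the Malat1 and Neat1 region. The horizontal axis is the distance in kb from the start of the first peak and covers the 75 kb of the region, each bar is as wide as its peak and as high as the authors' score, and the dashed line is the list median of 76.44. The peak of 188.4 stands alone, and those of 142.87 and 138.5 stand together about 40 kb further on.

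Each of the 3 peaks scored at least 100, a level reached by 27.9% of the list and by 47.1% of the 51 peaks of chromosome 19. No other peak of the list had any of their scores to the second decimal. Shared scores were common elsewhere, with 753 peaks (45.6%) having a score that at least 1 other peak also had. Their neighbours in rank on chromosome 19 were close in score for the third peak and further off for the first. A 569 bp peak from 47636941 to 47637509 came just above the first with 204.47, and a 1209 bp peak from 47062112 to 47063320 just below it with 175.6. Just above the second came a 402 bp peak from 32598308 to 32598709 with 153.66. An 831 bp peak from 59053045 to 59053875, with 138.82, lay between the second and the third in score, and a 555 bp peak from 37784811 to 37785365 followed the third with 137.39.

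The first and the third peak fell in a range of lengths that is crowded in this list. From 540 to under 590 bp there were 434 peaks, 26.3% of the list, and 14 of the 51 on chromosome 19. The median score of this range was 90.96, against 70.24 for peaks of other lengths. Among the 434 peaks the first ranked 49 and the third 100. The second lay well outside the range, at 1119 bp against a list median of 648 bp. What sets the crowded range was not tested.

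**Figure D2:**
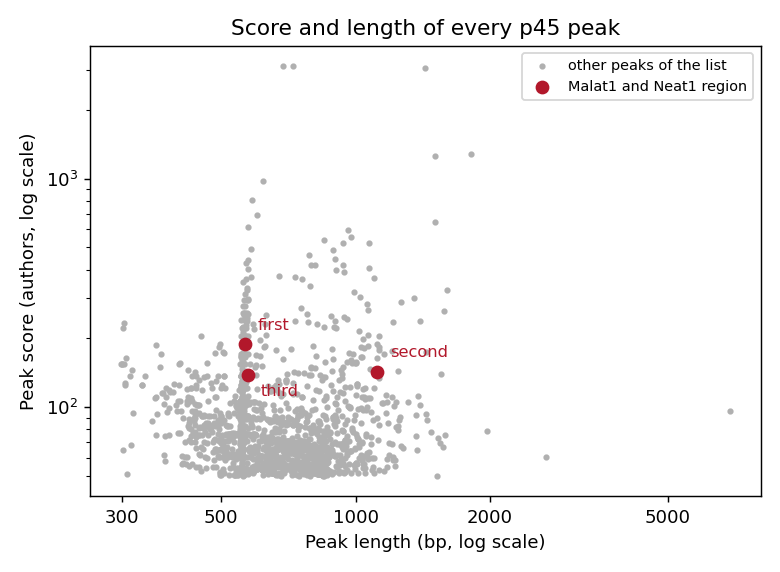
Score against length for the 1651 peaks of the list, both on log axes, with the 3 peaks of the region in red. The first (566 bp) and the third (574 bp) lie in the narrow column of crowded lengths, and the second (1119 bp) lies to the right of most peaks of its score.

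The second and the third peak formed a close pair. The gap between them was 1443 bp, the shortest of the 50 gaps between adjacent peaks of chromosome 19 and number 14 of 1626 in the list. Together the pair took up 3136 bp, of which 1693 bp were peak. The next shortest gaps on chromosome 19 were 11.2, 17.9 and 29.4 kb. The median gap was 427 kb on chromosome 19 and 621 kb in the list. Of the 14 pairs in the list with a gap of at most 1443 bp, 2 had both scores at 138.5 or above. This pair was among the 2 because its own gap and lower score set both limits. The other was the pair on chromosome X from 7536575 to 7540609, with scores of 1255.61 and 1279.27 and a gap of 710 bp. Another pair on chromosome X, from 157757078 to 157759251, had 106 for each peak, and the remaining 11 each held a peak below 100.

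The first peak lay 38.7 kb from the second, the fifth shortest gap of chromosome 19 and number 112 in the list. The nearest peak before the region, from 5448037 to 5449097, lay 359 kb from the first peak, less than the median gap of the chromosome, measured 1061 bp and scored 63.14, rank 42 of 51 on the chromosome. The nearest after it, from 6546019 to 6546810, lay 695 kb from the third peak, more than that median, measured 792 bp and scored 50.15, the lowest score on the chromosome. These are the peaks just outside the region, at 336 kb and 686 kb from its ends. Of the other peaks of chromosome 19, 6 came before the group and 42 after it, and the highest of those 6 scored 92.83. The top scores of the chromosome, 369.68 from 7015780 to 7016510 and 488.66 from 9206499 to 9207386, were the next but one and the third peak after the group.

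**Figure D3:**
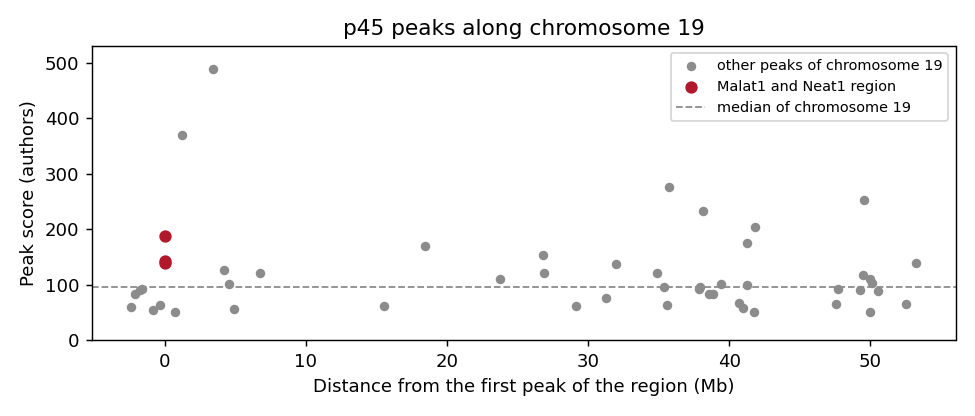
Scores of the 51 peaks of chromosome 19 against their distance in Mb from the first peak of the region, which is at 0; the dashed line is the chromosome's median of 96.18. The 3 red points of the region stand above the 6 peaks to their left, none of which exceeds 92.83, and below the peaks of 369.68 and 488.66 to their right.

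From the start of the first to the end of the third, the group spanned 42.4 kb, and its peaks covered 2259 bp, 3.01% of the region. On chromosome 19 no other 3 adjacent peaks lay in so short a span. In the list, 15 of 1605 sets of 3 adjacent peaks did, in 10 separate places once overlapping sets were joined. The Malat1 and Neat1 set was the widest of the 15, because its own span set the limit. Its lowest score of 138.5 was the second highest of the 15 lowest scores, after 163.34 in a set on chromosome X from 7536575 to 7553943. Sets with every score at 100 or above numbered 3, this one and the overlapping 2 on chromosome X. The set on chromosome 11 from 104387989 to 104396417 was next, with a lowest score of 90.96 in a span of 8429 bp. Scores in the Malat1 and Neat1 set ran from 138.5 to 188.4. Those on chromosome X from 7536575 to 7553943 ran from 163.34 to 1279.27, with a middle score of 1255.61, and narrow ranges at lower scores were seen elsewhere, such as 71.81 to 83.43 on chromosome 10 from 76662006 to 76674364.

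**Figure D4:**
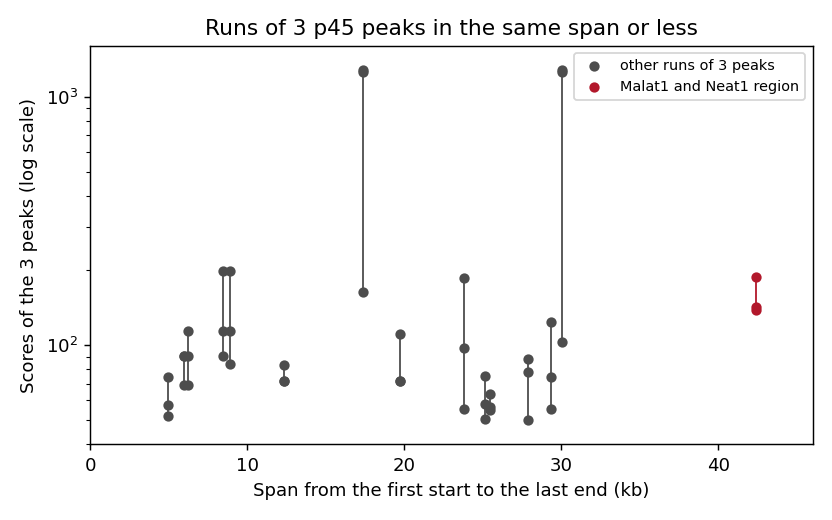
The 15 sets of 3 adjacent peaks in the list that span at most 42.4 kb. Each vertical line joins the scores of the 3 peaks of a set (log axis), placed at the span of the set in kb; the red set of the Malat1 and Neat1 region runs from 138.5 to 188.4, and only the set on chromosome X with a lowest score of 163.34 begins higher.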

How the data were processed

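ChIP-seq peaks of 1 p45 library were used. Per the labels' protocols, chromatin was fixed with 1% formaldehyde for 10 min and sonicated, the library was amplified for 15 cycles and fragments of about 250 bp were kept. The build is mm9, per the submitters' processing notes. The deposited list gives chromosome, start, end, name and score, and its peak names show that the authors called peaks with MACS. The labels assign the list to the p45 library. The deposited score per peak is the authors' own value, its scale is not stated in the list, and it was used to rank and filter peaks within the list. A control entered the calling, judging by the name of the file. Which library it was, the aligner, the MACS version and settings, and how duplicates were treated: all not given in the sources used here. Starts were read as zero-based and printed 1-based.

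Members were found by overlap of at least 1 base with the region. A gap is the bases between adjacent peaks, and a rank of 1 is the highest score, the greatest length or the shortest gap. The depth is unknown, hence peaks carry no interval of error, and no test was made. The ranges of length and the score of 100 were chosen with earlier results of these data known, as were the members. Named were the members, the nearest peaks around the region, peaks next in score on chromosome 19 and places at least as dense. The leading peaks of chromosome 19 and the lists of close pairs were added after their values were seen. Gene lists and cell markers need an annotation on mm9 and were not run. RefSeq tables on GRCm38.p6 gave names, gene order and promoter letters. The steps that find members, gaps, ranks and sets of 3 adjacent peaks were tested on simulated lists, and the other steps were not. Python 3.11.15, NumPy 2.4.6, pandas 2.3.3, SciPy 1.17.1 and matplotlib 3.10.9 were used.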

Additional observations from a re-analysis of the deposited data

How the results depend on the processing

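Treating tied scores differently could not move any rank, since no member's score is tied, and is not counted here. Of 17 other alternative values for 9 results, 13 stayed near the value reported. For counts, near was within 1.5 times. For ranks, as a percent of the peaks ranked, it was within the exact Clopper-Pearson 95% interval of the reported one. That interval only set a width for nearness and is no error of a rank, which is a fixed place in a complete list. On chromosome 19 it was wide, from 11.3 to 35.3% for the second peak. Most of the 13 could hardly have moved, so their number does not measure stability. The region held 3 peaks when widened by 50 kb on each side, with scores from the median up, with scores from 100 up, and with peaks wholly inside. Score ranks in the list moved with the lengths ranked. Among peaks outside 540 to under 590 bp, the second peak was at 10.1% from the top (123 of 1217), against 13.1% in the list. Within that range, an alternative chosen after seeing the data, the first peak was at 11.3% and the third at 23.0%, against 6.72 and 14.1%. The first and the third have no rank among other lengths. Places with 3 peaks in at most 42.4 kb numbered 10, and 2 at scores of at least 100, where fewer peaks are counted. They numbered 10 between peak centres and 15 within 75 kb, a span also chosen after seeing the data. Positions against the transcripts were not run. Depth is a limit, since an absent peak cannot be told apart from one below the caller's threshold. No paired analysis was possible because each group has 1 library and no result comes from a test.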
